A study of Mus musculus with 4 samples.

Results

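The G1 cyclins, their kinases and their brakes were followed as 10 genes of the 53465 in the deposited expression table. They were the D-type cyclins *Ccnd1*, *Ccnd2* and *Ccnd3*, the E-type cyclins *Ccne1* and *Ccne2*, the kinases *Cdk4*, *Cdk6* and *Cdk2*, and the brakes *Cdkn1b* and *Rb1*, each picked by its gene name. The set was chosen with results of the same contrast known, so the members' values, fold changes and intervals are given as a description. Where members are counted past a call rule, that count is part of the description and not evidence of a change. RNA came from cultured mouse female germline stem cells (FGSCs, labelled as an ovarian germ stem cell line) that carried either a control shRNA (shNC group) or an shRNA against *Nat10* (shNAT10 group). NAT10 is the acetyltransferase that places N4-acetylcytidine on RNA. The shRNAs were delivered with lentivirus and infected cells were selected with puromycin or blasticidin S, according to the methods, and every library came from such infected cultures. Each group held 2 libraries of Long RNA-seq. The paper's legends call them biological replicates, and neither they nor the labels say whether they came from separate cultures. Mice of the study were kept on a C57BL/6J background, and the methods do not tie the line to them. The age of the mice behind the line, and which shRNA construct was sequenced, are not given in the sources used here.

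Cells pass from G1 into S phase when cyclin-dependent kinases switch off the retinoblastoma protein. D-type cyclins, which mitogens induce, bind CDK4 or CDK6 and start to phosphorylate the retinoblastoma protein (gene *Rb1*), which then lets go of E2F transcription factors. E2F factors raise the E-type cyclins, which pair with CDK2 to finish this step, while p27 (gene *Cdkn1b*) binds and holds back cyclin-CDK2 complexes. In cultured stem cells, growth factors feed into this switch.

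The libraries are first described by their depth and their markers. Recovered totals lay between 11057922 and 14902438 fragments per library, and loci related to rRNA took 45.4% and 35.1% of shNC fragments but 23.2% and 25.1% of shNAT10 fragments. These loci included *Gm42418* and *Gm26917* beside genes annotated as rRNA. *Gm26917* is the lncRNA at the centre of the paper, which reports both as lower by RT-qPCR after *Nat10* knockdown. The part of the difference in rRNA-related fragments in the results below was not tested. *Nat10* itself measured 7.794 and 5.418 FPKM (fragments per kilobase of exon, scaled by 1 factor for each library) in shNC and 2.955 and 3.044 FPKM in shNAT10, which put its log2 change at -1.09 (standard error, SE, 0.21) and past the call rule given below (Benjamini-Hochberg adjusted p = 0.123 in limma). The shNAT10 libraries were thus both below both shNC libraries, and omitting any single library kept the log2 change of *Nat10* at -1.35 to -0.83.

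The germline label was checked against 11 germline markers, of which 1 reached 1 FPKM in any library. That gene was *Ifitm3*, at 9.292 and 22.24 FPKM in shNC against 27.14 and 33.58 in shNAT10. *Dazl*, *Pou5f1*, *Dppa3*, *Tfap2c* and *Sall4* were listed at 0 in all 4 libraries, and *Ddx4*, the germ cell helicase, was listed at 0 in 3 of them and at 0.05287 FPKM in shNAT10 replicate 1. By contrast, 7 of 7 pan-leukocyte markers reached 1 FPKM, with summed levels of 355.5 and 384.9 FPKM in shNC against 301.2 and 315.3 in shNAT10. Mast cell markers summed to 288.2 and 301.9 FPKM in shNC against 308.1 and 302.8 in shNAT10, mostly from *Cpa3*, while *Tpsb2* and *Fcer1a* were listed at 0. Fibroblast markers summed to between 44.97 and 60.81 FPKM, mostly from *Dcn*, with *Lum* at 0. At the call rule given below, which 8.41% of all genes tested passed as higher and 7.83% as lower, 2 of 6 fibroblast markers tested rose, namely *Pdgfra* (log2 change 0.83, limma's adjusted p = 0.132) and *Col3a1* (0.98, limma's adjusted p = 0.198), and *Col1a1*, *Col1a2*, *Dcn* and *Pdgfrb* did not pass. Of the 4 mast cell markers tested, *Ms4a2* rose (2.12, limma's adjusted p = 0.0842), *Gata2* fell (-0.33, limma's adjusted p = 0.187), and *Cpa3* and *Cma1* did not pass. Granulosa cell markers summed to between 0.6712 and 1.414 FPKM, with *Foxl2* and *Fshr* at 0. In these libraries most germline markers were thus at or near 0, which goes against the label, and the cells are called cultures labelled FGSCs here. The study's own marker checks by RT-PCR and immunofluorescence are other data and were not analysed here. In such bulk RNA, fewer cells of a type and less RNA per cell cannot be told apart. Of the 7 pan-leukocyte markers 4 fell at the call rule given below, beside 7.83% of all genes tested (*Laptm5*, *Lcp1*, *Tyrobp* and *Fcer1g*), while *Ptprc*, *Coro1a* and *Vav1* did not pass it. The *Ifitm3* level was higher in both shNAT10 libraries. The part of these marker differences in the members' values was not tested.

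Promoter sequences are shown for *Ccne1*, an E cyclin that was higher in both shNAT10 libraries, and for *Cdk4* and *Cdk2*, kinases whose groups overlapped, so that genes of both kinds can be read side by side. They come from RefSeq (GRCm38.p6), 5′ to 3′ on the strand of the gene, and cover the bases before the RefSeq start, ending where the GENCODE M21 gene begins. RefSeq windows were matched for 6 of the 10 members. *Ccnd1*, *Ccnd2*, *Ccne2* and *Rb1* had no entry. Capitals mark matches on either strand to an E2F motif (TTTCCCGC, TTTGGCGC, TTTCGCGC or TTTGCCGC), an E-box (CACGTG) or a GC box (GGGCGG), with overlapping matches counted separately.
Ccne1, chr7:38107535-38107740, minus strand: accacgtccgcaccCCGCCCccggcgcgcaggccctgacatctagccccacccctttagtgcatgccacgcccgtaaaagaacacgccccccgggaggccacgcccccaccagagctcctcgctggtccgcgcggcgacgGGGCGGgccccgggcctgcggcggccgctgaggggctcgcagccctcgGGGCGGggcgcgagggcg
Cdk4, chr10:127063285-127063533, plus strand: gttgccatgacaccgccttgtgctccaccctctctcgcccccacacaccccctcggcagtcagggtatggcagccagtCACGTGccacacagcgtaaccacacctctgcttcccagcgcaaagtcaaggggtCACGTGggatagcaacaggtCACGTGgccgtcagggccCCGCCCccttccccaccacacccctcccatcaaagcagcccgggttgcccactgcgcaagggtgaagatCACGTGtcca
Cdk2, chr10:128705052-128705301, minus strand: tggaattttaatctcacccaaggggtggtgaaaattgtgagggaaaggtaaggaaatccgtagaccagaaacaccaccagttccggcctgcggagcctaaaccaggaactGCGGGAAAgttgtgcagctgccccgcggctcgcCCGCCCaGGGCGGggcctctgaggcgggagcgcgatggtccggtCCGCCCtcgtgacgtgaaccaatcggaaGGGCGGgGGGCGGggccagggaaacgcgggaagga
The *Cdk4* window held 4 E-boxes and 1 GC box, and windows with at least 4 E-boxes numbered 7 of the 32851 searched (0.02%). One or more E-boxes stood in 6.0% of all windows. The *Cdk2* window held 1 E2F match, a motif found in 1.9% of all windows, and 5 GC boxes. In the *Ccne1* window, which continues past the printed run to 250 bases, there were 4 GC boxes and no E2F match with these letters. One or more GC boxes stood in 32.7% of all windows, at least 4 in 4.09% and at least 5 in 1.93%. Of the other members, *Cdk6* held 1 E-box, *Cdkn1b* 1 GC box, and the windows at both *Ccnd3* starts held GC boxes only. A match of letters is a description and was not read as a binding site.

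Across the 10 members, the D and E cyclins other than *Ccnd2* were higher in shNAT10, while *Cdk4*, *Cdk2* and *Cdkn1b* overlapped between the groups. The call rule asked for a change beyond 1.2-fold together with an unadjusted p no larger than 0.05, in limma on log2(FPKM + 0.1). By this rule 5 of the 10 members were past the threshold as higher, beside 8.41% of the 20116 genes tested, and 0 as lower, beside 7.83%. The members past it were *Ccnd1*, *Ccnd3*, *Ccne1*, *Ccne2* and *Rb1*. In 6 of the 10 both shNAT10 libraries lay above both shNC libraries (23.9% of all genes tested), and in 0 of the 10 both lay below (24.1%). Since the members were chosen from these values, nothing is read from the shares. The median log2 fold change was 0.43 over the members and 0.01 over all genes tested. All 10 passed the filter of a mean of at least 0.1 FPKM. Without shNAT10 replicate 1, or without shNAT10 replicate 2, 2 members were past the rule, namely *Ccnd1* and *Ccnd3*. Without shNC replicate 1 there were 4, with *Cdk2* in and *Ccne2* and *Rb1* out.

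**Figure D1:**
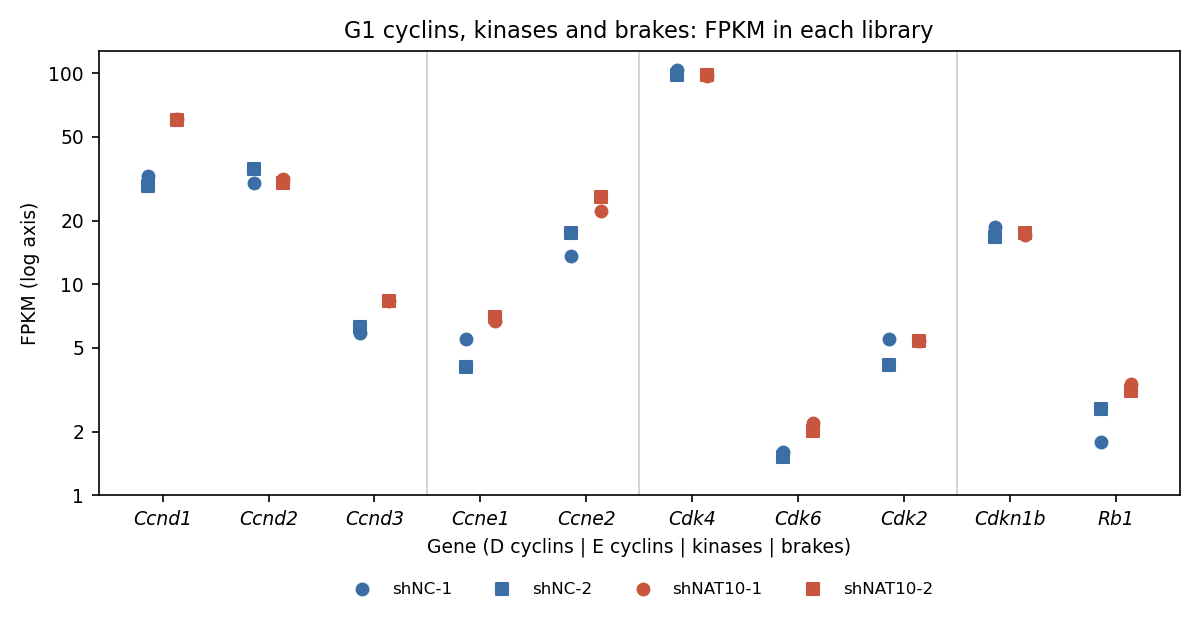
FPKM (log axis) of the 10 genes, with a point for each library, shNC in blue and shNAT10 in red, circles for replicate 1 and squares for replicate 2. The shNAT10 points stand above the shNC points for *Ccnd1*, *Ccnd3*, *Ccne1*, *Ccne2*, *Cdk6* and *Rb1*, and the groups overlap for *Ccnd2*, *Cdk4*, *Cdk2* and *Cdkn1b*.

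Among the D cyclins, *Ccnd1* (ENSMUSG00000070348, GRCm38 chr7:144929931-144939925, minus strand) encodes cyclin D1, the partner of CDK4 and CDK6 that growth factor signals induce. It measured 32.45 and 29.25 FPKM in shNC against 60.89 and 59.81 in shNAT10. Both shNAT10 libraries were well above both controls, and the gap between groups was far wider than that within either. The group means differed 1.96-fold, and the log2 fold change was 0.97 (SE 0.09, 95% interval 0.73 to 1.21). A total of 11347 fragments in the 4 libraries stood behind these values, and omitting any single library kept the log2 change of *Ccnd1* at 0.89 to 1.04. The exons of *Ccnd1* share 1100 bases, or 23.4% of their length, with the gene *LTO1* on the opposite strand. *LTO1* measured 9.37 and 8.27 FPKM in shNC against 15.56 and 15.88 in shNAT10. No source used here says that counting used the strand, so reads in the shared stretch cannot be told apart.

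Cyclin D2 (*Ccnd2*, ENSMUSG00000000184, chr6:127125162-127152193, minus strand) is another CDK4 and CDK6 partner, well known in granulosa and blood cells. *Ccnd2* measured 30.14 and 35.17 FPKM in shNC against 31.41 and 30.21 in shNAT10. The highest library was shNC replicate 2 and the groups overlapped. Its log2 fold change was -0.08 (SE 0.11), with a 95% interval of -0.36 to 0.21. The *Ccnd2* exons share 372 bases (4.0%) with *Gm43126* on the opposite strand, which measured between 39.84 and 49.28 FPKM. *Ccnd3* (ENSMUSG00000034165, chr17:47505051-47599691, plus strand), which encodes cyclin D3 and is prominent in lymphoid cells, measured 5.88 and 6.269 FPKM in shNC against 8.371 and 8.363 in shNAT10. Both shNAT10 libraries were higher and lay almost on each other. The log2 fold change of *Ccnd3* was 0.46 (SE 0.10, 95% interval 0.18 to 0.73), and it kept between 0.41 and 0.50 when single libraries were left out. A processed pseudogene, *Ccnd3-ps*, shares 1 stretch of 80 bases with *Ccnd3* and reached at most 0.09 FPKM. On the opposite strand, *Bysl* shares 361 bases (4.1%) of the *Ccnd3* exons. *Bysl* measured 4.66 and 4.96 FPKM in shNC against 6.8 and 7.09 in shNAT10, so it was higher there as well.

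The make-up of the D cyclins can be read within each library. *Ccnd1* took 47.4% and 41.38% of the summed D cyclin FPKM in shNC and 60.49% and 60.79% in shNAT10, a difference of the means of 16.25 percentage points. The share of *Ccnd2* was 44.02% and 49.75% in shNC and 31.2% and 30.71% in shNAT10. In the controls neither gene led in both libraries, since *Ccnd1* was ahead in replicate 1 and *Ccnd2* in replicate 2, whereas *Ccnd1* was ahead in both shNAT10 libraries. The share of *Ccnd3* stayed between 8.316% and 8.869% in all 4 libraries. Added up, the D cyclins measured 68.47 and 70.68 FPKM in shNC against 100.7 and 98.39 in shNAT10, a difference of 29.95 FPKM between the means.

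Both E cyclins, the partners of CDK2 at the start of S phase, were higher in the shNAT10 libraries. *Ccne1* (ENSMUSG00000002068, chr7:38097984-38107534, minus strand) measured 5.501 and 4.05 FPKM in shNC against 6.734 and 7.008 in shNAT10. The groups did not overlap, but a gap of 0.43 (log2) separated the shNC libraries, close to the difference between the groups. For *Ccne1* the log2 change was 0.53 (SE 0.18, 95% interval 0.06 to 1.00) on 811 fragments in all, and 0.32 without shNC replicate 2 at the low end or 0.75 without shNC replicate 1 at the high end. *Ccne2* (ENSMUSG00000028212, chr4:11191351-11204779, plus strand) measured 13.64 and 17.47 FPKM in shNC against 22.2 and 26.0 in shNAT10. All shNAT10 values were again higher, with a spread inside both groups. The log2 fold change of *Ccne2* was 0.63 (SE 0.16, 95% interval 0.21 to 1.06). Its exons share 609 bases (17.4%) with *Ints8* on the opposite strand. *Ints8* measured 4.64 and 6.2 FPKM in shNC against 7.98 and 7.42 in shNAT10, so the overlapping gene was higher there as well. *Ccne2* was the more abundant E cyclin in every library. *Ccne1* made up 28.74% and 18.82% of the summed E cyclin FPKM in shNC and 23.27% and 21.23% in shNAT10, which overlapped.

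**Figure D2:**
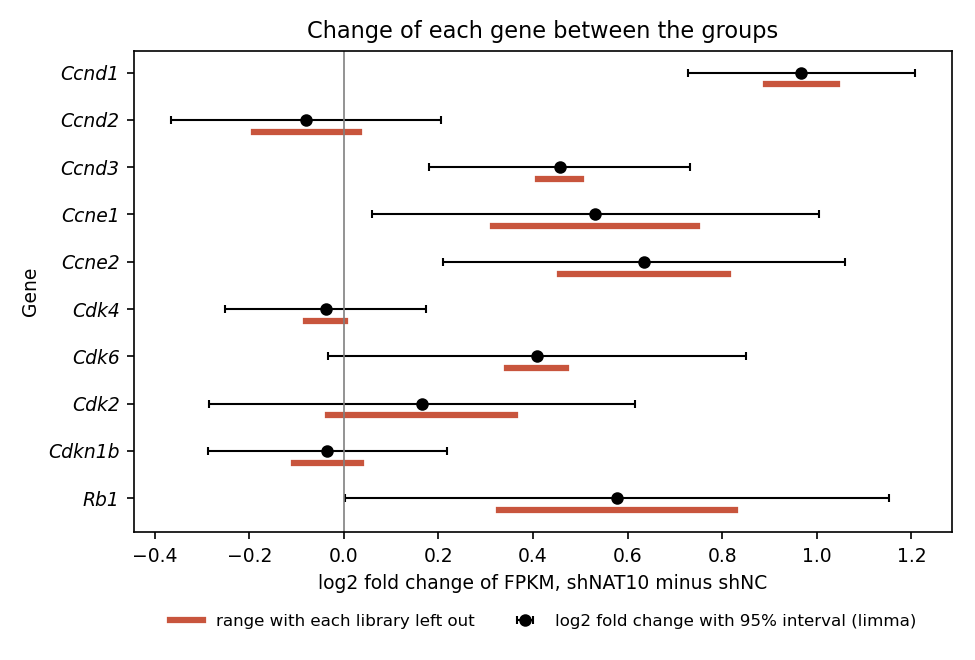
The log2 fold change of FPKM (shNAT10 minus shNC) of each gene as a black point with its 95% interval from limma, and below it, in red, the range over the fits that omit 1 library. *Ccnd1* stands at 0.97 with the interval 0.73 to 1.21, and the intervals of *Ccnd2*, *Cdk4*, *Cdk6*, *Cdk2* and *Cdkn1b* include 0.

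Of the kinases, *Cdk4* and *Cdk2* overlapped between the groups and *Cdk6* did not. *Cdk4* (ENSMUSG00000006728, chr10:127063534-127067920, plus strand), the D cyclin kinase with the higher level here, measured 103.6 and 97.82 FPKM in shNC against 97.3 and 98.7 in shNAT10. The groups overlapped and the 4 libraries were close together. For *Cdk4* the log2 change was -0.04 (SE 0.08, 95% interval -0.25 to 0.17), on 16609 fragments. *Tspan31* on the opposite strand shares 641 bases (19.7%) of the *Cdk4* exons, and measured between 26.01 and 33.96 FPKM. *Cdk6* (ENSMUSG00000040274, chr5:3341485-3531008, plus strand), the other D cyclin kinase and a familiar one in blood cells, was the lowest member. It measured 1.613 and 1.523 FPKM in shNC against 2.21 and 2.019 in shNAT10. Both shNAT10 libraries were higher, and *Cdk6* did not pass the call rule (log2 change 0.41, SE 0.17, 95% interval -0.03 to 0.85). Set against *Cdk4*, *Cdk6* amounted to 1.557% in both shNC libraries and to 2.271% and 2.046% in shNAT10.

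*Cdk2* (ENSMUSG00000025358, chr10:128697939-128705031, minus strand), the E cyclin kinase, measured 5.517 and 4.172 FPKM in shNC against 5.393 and 5.391 in shNAT10. The shNAT10 libraries lay between the shNC libraries. Its log2 fold change was 0.17 (SE 0.17, 95% interval -0.29 to 0.62), an interval that holds both 0 and the estimate for *Ccne1*. Within a library, the summed D cyclins came to 0.6511 and 0.7115 of *Cdk4* plus *Cdk6* in shNC and to 1.012 and 0.9769 in shNAT10. The shNAT10 libraries thus held about as much D cyclin FPKM as kinase FPKM, and the controls held less. These are mRNA levels, and protein was not measured in these files. By western blot, the paper reports raised cyclin D1, CDK4 and cyclin B1 protein and lowered cyclin A2 protein after *Nat10* knockdown. Those blots are other data and were not analysed here. In the mRNA, *Cdk4* overlapped between the groups, and *Ccna2*, given below, was higher in shNAT10.

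Of the brakes, *Cdkn1b* overlapped between the groups and *Rb1* did not. *Cdkn1b* (ENSMUSG00000003031, chr6:134920401-134925513, plus strand), which encodes the CDK inhibitor p27, measured 18.61 and 16.86 FPKM in shNC against 17.08 and 17.5 in shNAT10. Both shNAT10 libraries fell inside the range of the controls. For *Cdkn1b* the log2 change was -0.03 (SE 0.10, 95% interval -0.29 to 0.22). *Rb1* (ENSMUSG00000022105, chr14:73183673-73325822, minus strand) measured 1.783 and 2.563 FPKM in shNC against 3.378 and 3.112 in shNAT10. Both shNAT10 libraries were higher, yet shNC replicate 1 stood apart from replicate 2 by 0.50 on the log2 scale. The log2 fold change of *Rb1* was 0.58 (SE 0.22, 95% interval 0.0017 to 1.15) on 851 fragments, and 0.33 without shNC replicate 1. With other pseudocounts, no filter, no trend, quantile scaling or the replicate number as a block, *Rb1* did not pass the call rule. The *Rb1* exons share 488 bases (8.1%) with *Rcbtb2* and 408 bases (6.8%) with *Lpar6*, both on the opposite strand. *Rcbtb2* measured between 1.95 and 2.76 FPKM. Within a library, *Ccnd1* over *Cdkn1b* was 1.744 and 1.735 in shNC and 3.565 and 3.419 in shNAT10.

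**Figure D3:**
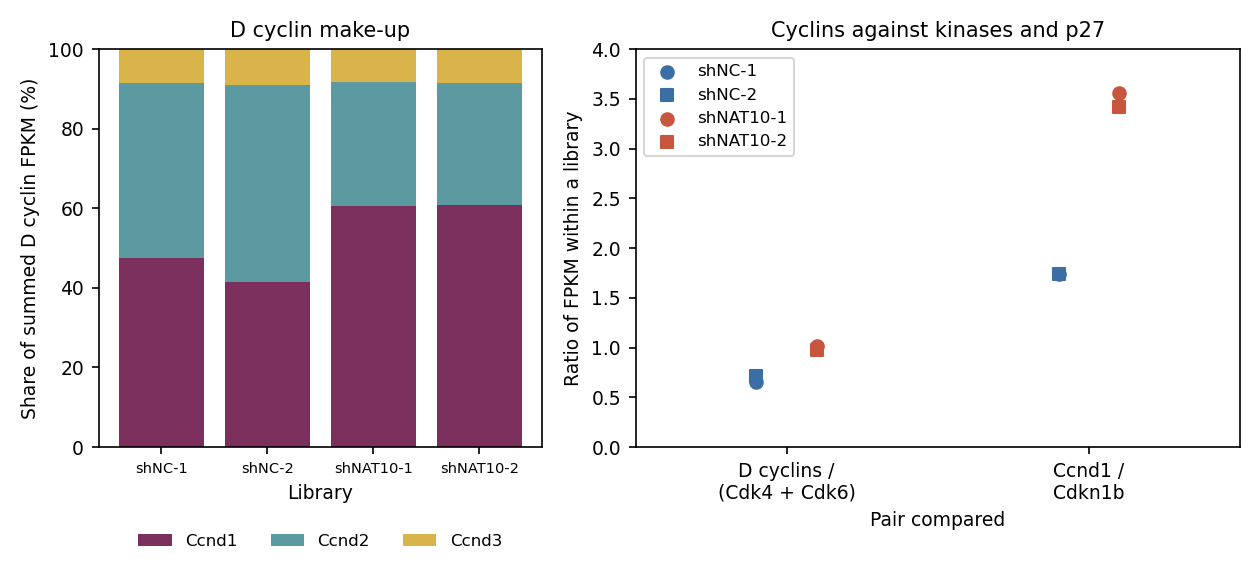
Left, the share of each D cyclin in the summed D cyclin FPKM of each library (%), as bars stacked to 100. Right, the ratio of summed D cyclins to *Cdk4* plus *Cdk6* and of *Ccnd1* to *Cdkn1b* in each library, shNC in blue and shNAT10 in red. *Ccnd1* takes 60.49% and 60.79% in shNAT10 against 47.4% and 41.38% in shNC, and both ratios are higher in both shNAT10 libraries.

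FPKM is scaled per length, so the levels of the members can be put in order. In shNC the order by mean FPKM ran from *Cdk4* (100.7) through *Ccnd2* (32.65), *Ccnd1* (30.85), *Cdkn1b* (17.73), *Ccne2* (15.56), *Ccnd3* (6.074), *Cdk2* (4.844), *Ccne1* (4.776) and *Rb1* (2.173) to *Cdk6* (1.568). Neighbours whose libraries overlapped were *Ccnd2* and *Ccnd1*, *Cdkn1b* and *Ccne2*, and *Cdk2* and *Ccne1*. In shNAT10 *Ccnd1* (60.35 FPKM) stood above *Ccnd2* (30.81), *Ccne2* (24.1) above *Cdkn1b* (17.29), and *Ccne1* (6.871) above *Cdk2* (5.392), with no neighbours that overlapped. The 3 pairs that overlapped in shNC were thus in the opposite order in shNAT10, each with the cyclin on top that was higher there.

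Other genes of the G1/S switch were read from a list of 44, of which 42 could be tested. *Cdkn1c* was listed at 0 in all libraries and *Mycn* was under the filter. By limma, 8 rose and 5 fell at the call rule, beside 8.41% and 7.83% of all genes tested, and 29 did not pass it. Fitted without the mean-variance trend, 4 rose and 0 fell, and the 4 were *Cdkn2c*, *Rbl1*, *Skp2* and *Mybl2*, so the other calls named below were lost in that fit. The median log2 fold change of the list was 0.06. No gene of it reached an adjusted p under 0.05 by limma (0 of 42), although 13 were at an unadjusted p of at most 0.05, and limma-voom on recovered fragments gave 6 such genes. Among all 20116 genes tested, an adjusted p under 0.05 was reached by 67 with higher and 21 with lower values in shNAT10. The counts depended on single libraries. Omitting shNC replicate 1 gave 5 higher and 3 lower, omitting shNC replicate 2 gave 4 and 1, and omitting either shNAT10 library gave 2 and 1. None of the 13 genes passed in all 4 of these fits, and *Cdkn1a* passed in none of them.

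Inhibitors of the kinases were among those that rose. *Cdkn2c*, which encodes the CDK4 and CDK6 inhibitor p18, went from 7.607 and 6.492 FPKM in shNC to 9.788 and 10.22 FPKM in shNAT10 (log2 change 0.50, SE 0.12, limma's adjusted p = 0.181). *Cdkn1a*, which encodes p21, rose from 41.94 and 46.23 to 51.5 and 56.75 FPKM (0.30, SE 0.10, limma's adjusted p = 0.262). For both genes the groups did not overlap. *Cdkn2a*, the Ink4a and Arf gene, measured 6.756 and 3.666 FPKM in shNC against 9.789 and 7.458 in shNAT10 and did not pass (log2 change 0.77, SE 0.33). Omitting shNC replicate 2 lowered this value to 0.33, and omitting shNC replicate 1 raised it to 1.199 and past the rule, which *Cdkn2a* also passed by limma-voom. Of the 5 inhibitors tested, 2 rose and 0 fell, beside 8.41% and 7.83% of all genes tested.

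Pocket proteins beside *Rb1* bind other E2F factors. *Rbl1*, which encodes p107, rose from 2.586 and 2.769 to 4.294 and 3.581 FPKM (log2 change 0.53, SE 0.16, limma's adjusted p = 0.224). *Rbl2*, for p130, had a log2 fold change of 0.31 and did not pass. Of 10 E2F and DP genes 2 rose, namely *E2f1* (log2 fold change 0.36, limma's adjusted p = 0.232) and its dimer partner *Tfdp1* (0.37, limma's adjusted p = 0.198), and 0 fell, beside 8.41% and 7.83% of all genes tested. *E2f2* had a log2 fold change of 0.39 without passing. The CDK-activating kinase genes and *Cdc25a* gave 0 calls in 4 genes. There *Cdk7*, the catalytic subunit, had a log2 fold change of -0.23, its cyclin *Ccnh* -0.07 and *Mnat1* 0.01.

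Of the 10 genes of ubiquitin ligases that remove cyclins and p27, 1 rose and 1 fell, close to the shares over all genes tested (8.41% and 7.83%), and 8 did not pass. *Skp2*, the adaptor that recognises p27, rose from 0.8433 and 1.038 FPKM in shNC to 1.882 and 1.781 FPKM in shNAT10 (log2 change 0.90, SE 0.21, limma's adjusted p = 0.163). Both shNAT10 libraries were well above the controls, while *Cdkn1b* mRNA overlapped as given above. *Fbxo4*, an adaptor linked to cyclin D1, fell from 4.409 and 5.802 to 3.542 and 3.378 FPKM (log2 change -0.54, SE 0.18, limma's adjusted p = 0.253, and -0.34 without shNC replicate 2). *Ambra1*, which directs D cyclins to breakdown, had a log2 fold change of -0.27 and did not pass.

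The MuvB complex joins pocket proteins in resting cells and B-Myb in cycling cells. Of its 6 genes 2 rose and 1 fell (8.41% and 7.83% of all genes tested), and *Lin9*, *Lin37* and *Rbbp4* did not pass. *Mybl2*, the gene for B-Myb, rose from 4.742 and 3.51 to 7.362 and 7.449 FPKM (log2 change 0.84, SE 0.18, limma's adjusted p = 0.142). *Lin54*, the DNA-binding subunit of MuvB, rose by a log2 fold change of 0.34 (limma's adjusted p = 0.260), and did not pass without the trend or when either shNC library or shNAT10 replicate 2 was omitted. *Lin52*, a core subunit, fell from 4.709 and 3.223 to 2.485 and 2.118 FPKM (log2 change -0.74, limma's adjusted p = 0.241, and -0.47 without shNC replicate 1).

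The genes listed upstream of cyclin D were lower in shNAT10. They mix inducers (*Myc*, *Jun* and *Fos*) with brakes (*Gsk3b* and *Dmtf1*), so nothing is read from their shared direction. In 5 of the 5 tested, both shNAT10 libraries were below both shNC libraries (24.1% of all genes tested), and 3 passed the call rule as lower (7.83%). *Myc* fell from 13.1 and 13.89 to 11.44 and 9.267 FPKM (log2 fold change -0.39, limma's adjusted p = 0.274, and -0.24 without shNAT10 replicate 2), and *Jun* from 7.769 and 8.717 to 6.52 and 6.709 FPKM (-0.31, limma's adjusted p = 0.289). *Dmtf1*, an activator of Arf that can hold cyclin D signals in check, fell from 7.595 and 7.568 to 5.765 and 6.156 FPKM (-0.34, limma's adjusted p = 0.240). *Gsk3b*, the kinase that marks cyclin D1 for export and breakdown, had a log2 fold change of -0.39 (-0.60 to -0.18 when single libraries were omitted) and passed by limma-voom only. *Fos*, a gene of the list that is too low for the rule on named genes and is named here after its values were seen, had -1.33 (-2.02 to -0.64) on at most 1.289 FPKM. It did not pass, except under quantile scaling, without shNC replicate 1 and by limma-voom. *Jun* did not pass by limma-voom or when any library but shNC replicate 1 was omitted, and *Jun* and *Dmtf1* did not pass when all libraries were scaled to the same FPKM total computed without rRNA-related loci.

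**Figure D4:**
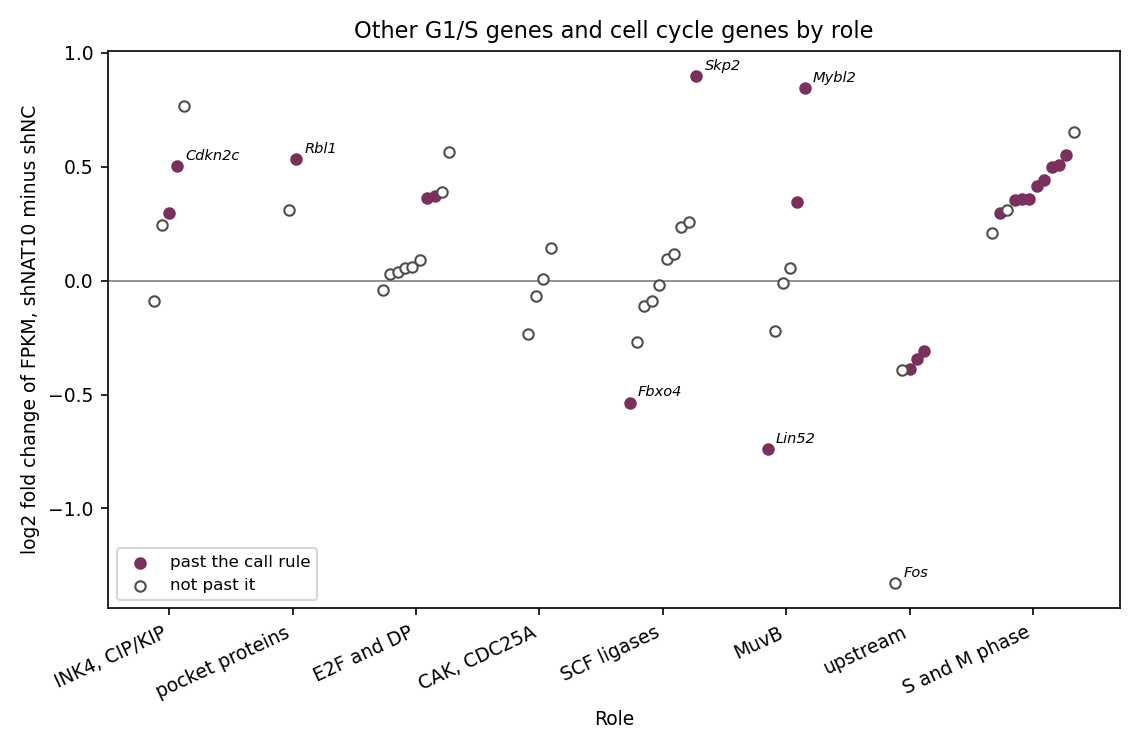
The log2 fold change of FPKM (shNAT10 minus shNC) of the other G1/S genes tested, a point each, by role, with S and M phase genes at the right. Filled points passed the call rule. *Skp2* (0.90) and *Mybl2* (0.84) stand highest, and the 5 genes of the upstream role, inducers and brakes alike, stand below 0.

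Genes used as marks of S phase and mitosis were set beside the members. Each of the 12 had a log2 fold change above 0 (10160 of the 20116 genes tested), and 9 rose at the call rule (8.41% of all genes tested), with a median of 0.39. *Ccnb1* (0.31), *Mcm2* (0.21) and *Mki67* did not pass, and the groups overlapped for *Ccnb1* only. Fitted without the mean-variance trend, 1 of the 12 passed. The DNA clamp *Pcna* rose from 9.755 and 12.07 to 15.97 and 15.03 FPKM (0.51, limma's adjusted p = 0.203), and the nucleotide reductase subunit *Rrm2* from 9.555 and 11.07 to 15.61 and 13.63 FPKM (0.50, limma's adjusted p = 0.194). The helicase subunits *Mcm3*, *Mcm5* and *Mcm6* (0.42, 0.35 and 0.55), *Ccna2* (0.44), *Cdk1* (0.36), *Ccnb2* (0.36) and *Top2a* (0.30) rose too, with adjusted p between 0.142 and 0.272 by limma. Omitting shNC replicate 2 lowered *Mcm6* to 0.32, *Ccna2* to 0.26 and *Cdk1* to 0.22. *Mki67* (0.65) did not pass, and its shNC libraries were far apart at 13.87 and 7.728 FPKM. Omitting shNC replicate 1 gave 10 such genes, omitting shNC replicate 2 gave 7, omitting shNAT10 replicate 1 gave 2 and omitting shNAT10 replicate 2 gave 1. Their part in the members' values was not tested.

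The genes most like *Ccnd1* were those whose centred log2(FPKM + 0.1) over the 4 libraries lay nearest by Euclidean distance, among 3573 genes with a mean of at least 10 FPKM. They were *Hist1h4k* (distance 0.0697), *Cavin2* (0.11) and *Hist1h4d* (0.144). *Cavin2* measured 23.27 and 23.08 FPKM in shNC against 47.72 and 46.27 in shNAT10. *Hist1h4k* measured 905.7 and 814.0 FPKM in shNC against 1717 and 1583 in shNAT10. The histone H4 genes have near-identical copies that share reads, so their own values are uncertain.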

How the data were processed

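RNA of shNC and shNAT10 cultures was compared, with 2 libraries per group, grouped by title and genotype label. The authors deposited FPKM per gene and library. The submitters' processing notes name cutadapt, HISAT2, DESeq2 and the mm10 build, and the counter and its strand setting are not given in the sources used here. The paper's methods describe rRNA depletion, whereas the labels describe mRNA isolation. The deposited table of the authors' own comparison, with log2 fold changes and p-values, was not used. Rescaling by median ratios left the FPKM as they were.

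Genes with a mean of at least 0.1 FPKM were compared on log2(FPKM + 0.1) by limma's moderated test (version 3.58.1, under R 4.3.3, two-sided, variance prior with a trend), and p-values were adjusted by Benjamini-Hochberg over all genes tested. This scale understates the change of low genes. A gene passed with a change beyond 1.2-fold together with an unadjusted p no larger than 0.05. The members, the lists of other G1/S, S and M phase and marker genes and the rule for named genes were chosen with earlier results of these data known. Named were all members, *Nat10*, every list gene past the threshold, up to 3 genes of each role with the largest change at a mean of at least 1 FPKM, and the 3 genes nearest to *Ccnd1*. Fragments were recovered as whole reads with GENCODE M21 exon lengths, and between 96.0% and 96.6% of values under 50 fragments came within 0.02 of a whole number. A limma-voom fit used them. The method was tested on simulated data with log2 changes of 1.5 up or down. There 197 of 200 changed genes were called in the right direction, and 4.8% of unchanged genes were called. Those changes were larger than any of the members, so smaller changes were not covered. Python 3.11.15, numpy 2.4.6, pandas 2.3.3 and matplotlib 3.10.9 were used for the rest. Alternatives were pseudocounts of 1 and 0.01, no filter, a mean of at least 1 FPKM, median-ratio and quantile scaling, scaling to equal FPKM totals computed without rRNA-related loci (equal totals), no trend, the replicate number as a block, limma-voom, recovered fragments in place of FPKM for ratios, and each library left out. The members' fold changes, intervals and place against the call threshold come from the same fit and are given as a description only.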

Additional observations from a re-analysis of the deposited data

How the results depend on the processing

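A fit that leaves out a library has 1 library in that group, which is assumed to vary like the other group. Members past the threshold as higher numbered 5 and fell to 3 without the trend, and lay between 2 and 5 with each library left out. *Ccnd1* and *Ccnd3* passed in all of the 15 fits. *Rb1* did not pass with pseudocounts of 1 or 0.01, without the filter, without the trend or under quantile scaling, and limma-voom added *Cdk6* (6 members). Other G1/S genes that rose numbered 4 without the trend (8 as reported) and 2 to 5 with a library left out, and those that fell numbered 3 at equal FPKM totals computed without rRNA-related loci (equal totals), 0 without the trend (5 as reported) and 1 to 3 with a library left out. Over all genes, the count higher ranged from 1108 to 1734 and the count lower from 899 to 1659 with a library left out. Genes at an adjusted p under 0.05 numbered 88 as reported, 1582 by limma-voom, 296 at a mean of at least 1 FPKM, 143 under quantile scaling, 135 at equal totals and 0 in the other alternatives except median-ratio rescaling. Equal totals gave 1878 higher and 1266 lower genes.

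With recovered fragments in place of FPKM, which drops the scaling per length, the difference in the *Ccnd3* share of D cyclins was 0.802 percentage points (-0.32 as reported), that of *Cdk6* over *Cdk4* 2.588 points and that of D cyclins over the kinases 0.409. The change of the *Ccne1* share turned from -1.526 to 3.434 points without shNC replicate 1, in a range from -6.485 to 3.434. The signs of *Ccnd2*, *Cdk4*, *Cdk2* and *Cdkn1b*, whose intervals include 0, turned when single libraries were left out, and those of *Cdk4* and *Cdkn1b* also at equal totals.

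The replicate numbers did not pair the libraries, since deviations of libraries with the same number correlated at 0.007 over all genes tested. With the replicate number as a block, 1587 genes were higher and 1527 lower, 4 members passed without *Rb1*, and 8 other G1/S genes rose, with *Cdkn2a* in and *Lin54* out, and 4 fell, without *Jun*. Among the members, *Ccne1* and *Rb1* rested on the fewest fragments, at 811 and 851 in all.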
